A study of Homo sapiens with 28 samples.

Results

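The vacuolar proton pump (V-ATPase) acidifies lysosomes and other compartments, and its membrane part, V0, is built from a handful of subunits that exist in several isoforms. This account follows the V0 subunit genes, chosen as ATP6V0D2 and 9 relatives named for the same complex, in a human kidney line in which 9 genes were silenced in turn. ATP6V0D2 was chosen by its measured values, a level in the cells with hairpins against CLP1 above that of the control. Its CLP1 values, and its other contrasts with the same control array, are therefore given as a description with no test. The relatives were listed for being V0 subunits. Of the 10 genes, 9 were measured by a probeset that names 1 gene, each by a single probeset, among 18417 genes measured in all. ATP6V0A4 was not analysed here.

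HEK293 is a line of human embryonic kidney cells. The cells were infected with lentiviruses of the pLKO type, in which the U6 promoter drives a short hairpin RNA (shRNA), and were kept in puromycin for 6 days before RNA was taken. Transcripts were measured on Affymetrix HuGene ST1.0 arrays, 14 in a first series and 14 in a second. The control in both series was a hairpin against the bacterial lacZ gene, so the control cells carried the virus, the hairpin machinery and the selection too. The first series held 1 lacZ array, 3 hairpins each against CLP1 (a kinase of the cleavage factor that acts at mRNA 3′ ends and in tRNA splicing), DDX5, DDX17 (paired RNA helicases) and HNRNPL (a splicing factor), and 1 hairpin against CPSF6 (a subunit of cleavage factor I). The second held 2 lacZ arrays and 3 hairpins each against PABPC1 (poly(A)-binding protein), PARP1 (a poly(ADP-ribose) polymerase), PRKDC (the catalytic subunit of DNA-PK) and SUPT16H (a subunit of the FACT histone chaperone). Replicates of a target are different hairpins on 1 array each, and p-values here measure the spread between these arrays. The study's methods speak of repeat tests of every hairpin, but no label ties an array to such a repeat. The genes silenced are not themselves V0 genes.

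Values are log2 probeset intensities. The series differ in scale, with array medians of 61.49 to 74.01 in the first and 54.53 to 58.34 in the second on the linear scale, so comparisons stay within a series. The first-series lacZ array and 1 of the 2 second-series lacZ arrays differed less than arrays of other pairs (SD of the log2 difference over all probesets 0.07, against 0.29 and 0.28 with the other lacZ array) and were taken for the same library, used once in each series. The first-series control is therefore 1 array. The third hairpins against DDX5, HNRNPL and PRKDC stood apart: the SD of their log2 difference from both sister hairpins was over 0.4 over all probesets. Of the 8 targets with 3 hairpins, 5 were called lower than in lacZ, and CLP1 itself lay at 5.73 to 5.84 in its 3 arrays against 6.36 in lacZ, with an adjusted p of 0.187 (limma). The line's usual markers were present: NEFL lay between 8.99 and 11.68 and KRT8 between 9.11 and 10.23 across all 28 arrays.

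V0 is the ring and stalk base through which protons pass, and V1 is the ATP-burning head that sits on top of it. The a subunit forms the proton half-channel, with isoforms for different membranes, the c and c″ proteolipids form the rotating ring, the d subunit caps the ring and couples it to the head, and the small e subunit binds at the side. The d2 isoform encoded by ATP6V0D2 is best known from osteoclasts and from kidney intercalated cells, while the d1 isoform encoded by ATP6V0D1 is found in most cells.

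ATP6V0D2 stood highest in the cells with CLP1 hairpins, lay in between in those with DDX5, DDX17 and HNRNPL hairpins, and lay near lacZ in the second series. Its log2 intensity was 3.88 in the first-series lacZ array and 5.84, 5.94 and 5.93 in the 3 CLP1 arrays. All 3 CLP1 arrays lay above every one of the other 25 arrays, the nearest of which was 0.72 log2 units lower. It was 5.0, 4.63 and 4.55 in the DDX5 arrays, 4.8, 4.65 and 4.18 in the DDX17 arrays, and 4.72, 5.12 and 4.14 in the HNRNPL arrays. Each of these 9 hairpins was above lacZ, by 0.26 to 1.24 log2 units, and the 3 targets overlapped with one another. The CPSF6 array read 3.69, below lacZ.

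**Figure D1:**
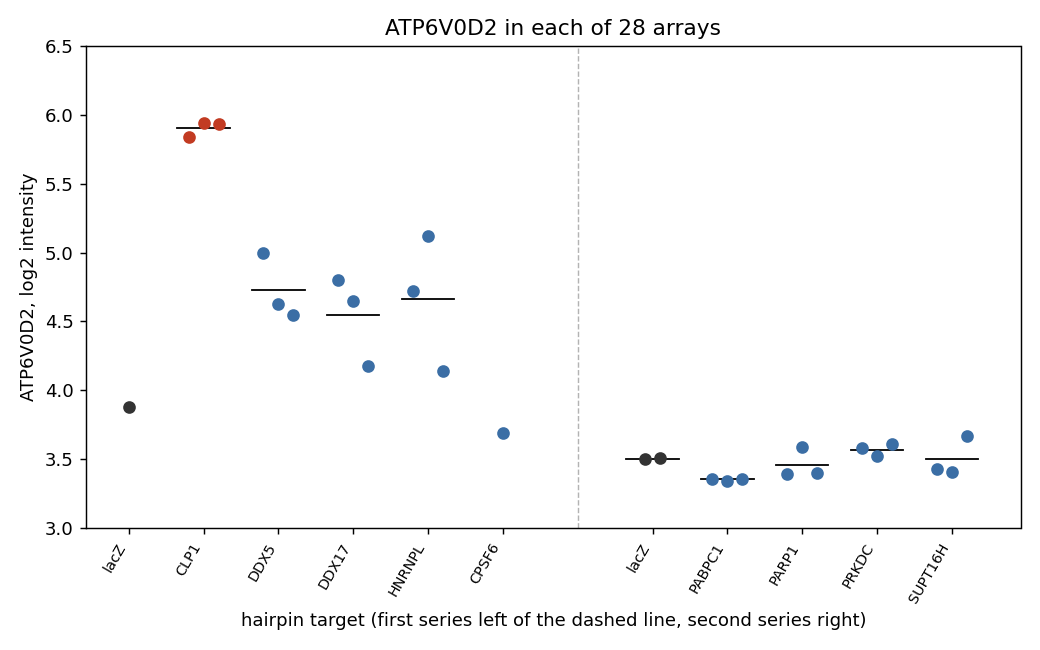
ATP6V0D2 log2 intensity (y axis) in each of the 28 arrays, by hairpin target (x axis), with lacZ in black, CLP1 in red, other targets in blue and a bar at the mean of groups with more than 1 array. The 3 CLP1 points lie at 5.84 to 5.94, and the second series lies at 3.34 to 3.67.

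The mean in the CLP1 cells was 5.90 ± 0.06 (SD, n = 3), which is 2.02 log2 units above the single lacZ array (SE of the fit 0.23), and 1.26 above the mean of the other 3 targets of the series. No detection call came with the values, and in the lacZ array the gene read among the dimmest: 3.69% of all genes were lower there, and CALCR (3.8), DCSTAMP (3.85) and ATP6V1G3 (3.85), genes of osteoclasts and kidney, lay beside its 3.88. The probe was therefore not shown to be above background in lacZ, and no linear fold is given. The corresponding differences from lacZ were 0.85 for DDX5, 0.66 for DDX17 and 0.78 for HNRNPL. These values chose the gene or share its control, and all 12 first-series hairpins lay above lacZ for 9.31% of all genes. The CLP1 hairpins were alike for this gene: they lay 1.96, 2.06 and 2.05 above lacZ. Of all genes 7.54% had a lower mean log2 intensity. With a pseudocount of 16 the CLP1 difference was 1.3, and with the lacZ arrays of both series as 1 group it was 2.3. That 1 group crosses the series, which differ in scale: the shared lacZ library read 3.88 in the first and 3.5 in the second.

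Between DDX5, DDX17 and HNRNPL, which can be tested because they played no part in the choice, ATP6V0D2 did not differ past the threshold in any of 3 pairs. The largest difference was 0.18 for DDX5 over DDX17 (95% interval −0.16 to 0.52; adjusted p = 0.652, limma with Benjamini-Hochberg adjustment over all genes). In the second series ATP6V0D2 was 3.5 and 3.51 in the lacZ arrays. It read 3.36, 3.34 and 3.36 with PABPC1 hairpins, 3.39, 3.59 and 3.40 with PARP1 hairpins, 3.58, 3.52 and 3.61 with PRKDC hairpins, and 3.43, 3.41 and 3.67 with SUPT16H hairpins. Every PABPC1 array was below both lacZ arrays, as for 25.4% of all genes, and every PRKDC array was above both, as for 38.7%. The PARP1 and SUPT16H arrays lay on both sides of lacZ.

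Those second-series differences from lacZ were −0.15 for PABPC1, −0.05 for PARP1, 0.06 for PRKDC and 0.00 for SUPT16H. No call was made in the 4 tests (lowest adjusted p = 0.61, and 0 unadjusted p under 0.05, limma), with 95% intervals that reached from −0.53 to 0.44. None of the 6 pairs of second-series targets was called either (lowest adjusted p = 0.485). The shared lacZ library read 3.88 in the first series and 3.5 in the second for ATP6V0D2, and 0.32 higher in the first on average over all probesets.

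ATP6V0D1, the widely expressed d isoform, ran the other way at the CLP1 hairpins without passing the test. It was 7.75 in first-series lacZ and 7.19, 6.97 and 7.32 in the CLP1 arrays, all 3 below lacZ, as for 28.7% of all genes. The difference was −0.60 ± 0.42 (SE; adjusted p = 0.78, limma). Its other differences from lacZ lay between −0.57 (DDX5) and 0.34 (PABPC1) and none was called. Hairpins of 1 target scattered widely for this gene, from 6.65 to 7.49 with DDX5 and from 6.92 to 7.83 with PARP1. The range was 6.97 to 8.25 with PRKDC and 6.69 to 7.85 with SUPT16H. With PARP1 the first hairpin was the one set off from its pair, and with DDX5, PRKDC and SUPT16H the third.

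The a subunits gave most of the calls. ATP6V0A2, whose isoform sits in Golgi and early endosomal membranes, was 7.88 and 7.63 in the second-series lacZ arrays. It was 6.81, 7.04 and 7.11 with PABPC1 hairpins, 6.94, 7.04 and 7.02 with PARP1 hairpins, 7.01, 6.76 and 6.59 with PRKDC hairpins, and 6.78, 6.77 and 6.77 with SUPT16H hairpins. All 12 arrays lay below both lacZ arrays, as was so for 12.4% of all genes.

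ATP6V0A2 fell in all 4 second-series knockdowns. The difference from lacZ was −0.77 ± 0.21 (SE) for PABPC1, where 4.02% of all genes were called lower, with an adjusted p of 0.0313 (limma). For PARP1 it was −0.75 ± 0.21 (adjusted p = 0.0342, limma; 2.98% of genes called lower). For PRKDC it was −0.97 ± 0.21 (adjusted p = 0.00303, limma; 16.1% called lower), and for SUPT16H −0.99 ± 0.21 (adjusted p = 0.00531, limma; 5.76% called lower). The 4 comparisons share the same 2 lacZ arrays and are not independent. Without lacZ replicate 2, the library shared with the first series, the differences were −0.65, −0.63, −0.85 and −0.86 and the adjusted p values 0.371, 0.411, 0.0752 and 0.14, so none of the 4 was called. Without lacZ replicate 3 the PABPC1 and PARP1 calls were lost (adjusted p = 0.0811 and 0.0915, limma) and the other two held. The PABPC1 and PARP1 calls were also lost with median centring and without any 1 of their own hairpins.

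In the first series ATP6V0A2 was 8.26 in lacZ, 8.21, 8.43 and 8.54 with CLP1 hairpins, 8.29, 7.80 and 7.32 with DDX5 hairpins, 8.08, 7.61 and 8.05 with DDX17 hairpins, 7.73, 8.08 and 7.67 with HNRNPL hairpins, and 7.96 with the CPSF6 hairpin. The CLP1 arrays lay on both sides of lacZ, and they were above every array of the other 3 targets except the first DDX5 hairpin, at 8.29. No first-series difference was called. CLP1 against the other 3 targets gave 0.55 ± 0.15 (adjusted p = 0.0891, limma), the closest any V0 gene came to a call against the other knockdowns of its series. Without the 3 arrays that stood apart, CLP1 over DDX17 was called at 0.48 (adjusted p = 0.0444, limma), where 7.68% of all genes were called.

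ATP6V0A1, the a isoform best known from neurons, was the 1 V0 gene that was below lacZ in every hairpin array of the 8 targets. It read 9.15 in first-series lacZ, and 8.31, 8.48 and 8.54 with CLP1 hairpins, 8.57, 8.20 and 7.13 with DDX5, 8.48, 7.99 and 8.5 with DDX17, 8.62, 8.59 and 8.00 with HNRNPL. In the second series it read 8.86 and 8.23 in lacZ, and 7.80, 7.79 and 8.04 with PABPC1, 7.83, 7.90 and 7.95 with PARP1, 7.63, 7.84 and 7.82 with PRKDC, and 7.29, 7.61 and 8.21 with SUPT16H. All 24 hairpin arrays were below every lacZ array of their series, which 4.69% of all genes also showed, and the CPSF6 array, at 9.04, came nearest to its control.

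Only the PRKDC difference of ATP6V0A1 passed the test, at −0.78 ± 0.30 (SE; adjusted p = 0.0445, limma). The other 7 differences were of similar size, from −0.65 (PARP1) to −1.19 (DDX5), with adjusted p values from 0.0708 to 0.615 (limma). The 2 second-series lacZ arrays had an SD of 0.44. The PRKDC call was lost in 16 of 38 alternatives, with quantile normalization, median centring, the ordinary linear model and the loss of any PRKDC hairpin among them. Without lacZ replicate 2 the difference was −0.47 (adjusted p = 0.368, limma), the weakest of them. Without the 3 arrays that stood apart, DDX17, PABPC1, PARP1 and SUPT16H were called lower as well, at −0.65 to −0.84. In that setting 9.71% of all genes were called with DDX17, 25.3% with PABPC1, 17.1% with PARP1 and 31.0% with SUPT16H.

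TCIRG1 encodes the a3 isoform of osteoclasts and lysosomes. It was 6.42 in first-series lacZ and 6.36, 5.86 and 5.86 in the CLP1 arrays, of which the last 2 were the lowest of the series. The CLP1 difference was −0.39 ± 0.21 (SE; adjusted p = 0.6, limma), and no comparison of TCIRG1 was called. Across the other groups it kept to a narrow range, between 5.84 and 6.58.

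The ring proteolipids were not called in any comparison with lacZ over all arrays. ATP6V0C, the c subunit, lay between 8.63 and 9.42 in all 28 arrays, and its differences from lacZ ran from −0.12 (DDX5) to 0.30 (HNRNPL). ATP6V0B, the c″ subunit, lay between 7.27 and 8.71, with differences from −0.37 (SUPT16H) to −0.01 (DDX17). With CLP1 hairpins ATP6V0C read 8.86, 8.92 and 8.93 against 9.02 in lacZ. ATP6V0B read 8.28, 8.23 and 8.47 against 8.44. Both stayed close to the control. Without the 3 arrays that stood apart ATP6V0B was called lower with PRKDC hairpins, at −0.62 ± 0.20 (SE; adjusted p = 0.0147, limma; 46.8% of all genes called).

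Of the e subunits, ATP6V0E1 fell with PRKDC hairpins and ATP6V0E2 had no call. ATP6V0E1 was 9.34 and 9.64 in lacZ and 8.02, 8.14 and 9.07 with PRKDC hairpins, all below lacZ, as for 27.5% of all genes, with the third well above its sisters. Its PRKDC difference was −1.08 ± 0.32 (SE; adjusted p = 0.0149, limma). It was lost without lacZ replicate 2 (−1.23, adjusted p = 0.0811, limma), without lacZ replicate 3 and without the first PRKDC hairpin, and without the arrays that stood apart it was −1.41 (adjusted p = 4.87e-06, limma). In that same setting ATP6V0E1 was also lower with PRKDC hairpins than the mean of the other 3 targets, by −0.88 ± 0.14 (SE; adjusted p = 0.00111, limma). There 46.8% of all genes were called with PRKDC hairpins against lacZ, and 14.4% against the other 3 targets.

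ATP6V0E1 had 9.92, 9.88 and 9.98 with CLP1 hairpins against 9.82 in lacZ, so it was near its control. All 12 second-series hairpin arrays were below both lacZ arrays for this gene, as for 12.4% of all genes. ATP6V0E2, the second e isoform, was 7.57 and 7.64 in second-series lacZ and 8.01, 7.94 and 8.21 with PRKDC hairpins, all above lacZ, as for 38.7% of all genes. Its PRKDC difference was 0.45 ± 0.18 (SE; adjusted p = 0.0527, limma), short of the threshold, and those for PABPC1 and PARP1 were 0.41 and 0.34. Without the arrays that stood apart the PABPC1 difference was called (adjusted p = 0.0442, limma; 25.3% of all genes called). Whether the e isoforms differ from each other in their shift was not tested.

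**Figure D2:**
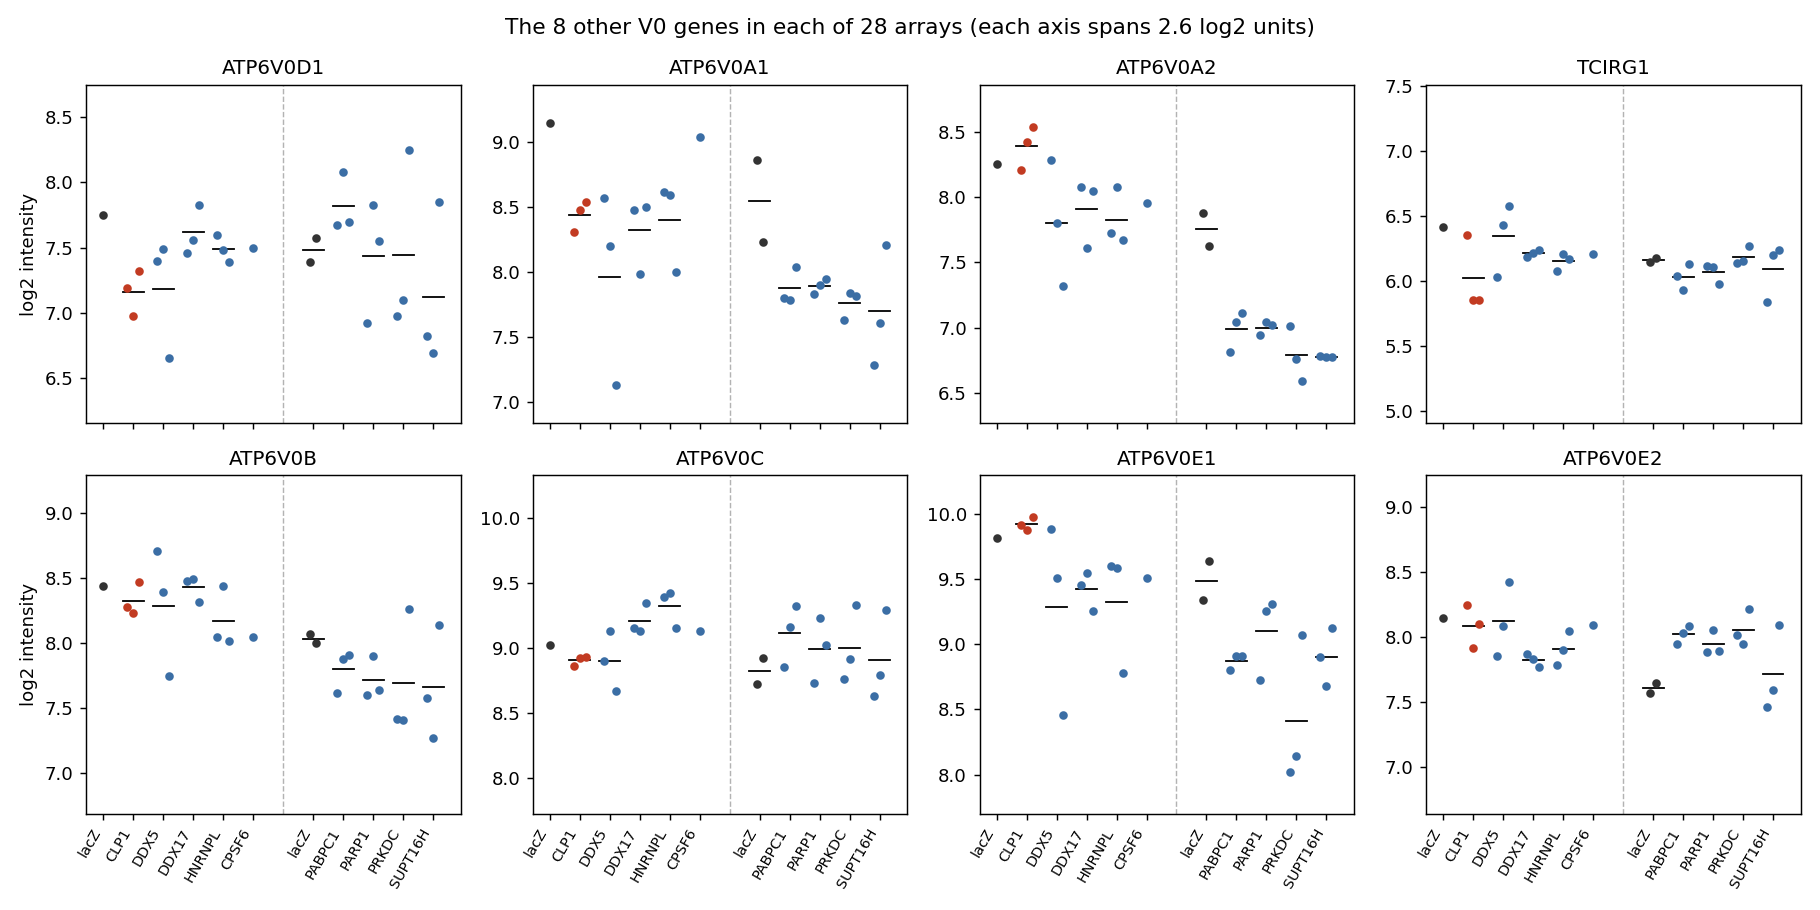
Log2 intensity (y axis, each panel spanning the same range) of the 8 other V0 genes in each of the 28 arrays, by hairpin target (x axis), with lacZ in black, CLP1 in red, other targets in blue and a bar at the mean of groups with more than 1 array. ATP6V0A1 and ATP6V0A2 are lower than both lacZ arrays in all 12 second-series hairpin arrays, and no gene shows the CLP1 step of ATP6V0D2.

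Taken over the 8 V0 genes other than ATP6V0D2 and all 8 knockdowns, 6 of 64 comparisons with lacZ were called, all of them lower. With quantile normalization over all arrays 7 were called, 2 higher and 5 lower. Over all genes and both series 4.10% of such comparisons were called lower and 3.75% higher. All 6 calls lay in the second series, 3 of them with PRKDC hairpins. There 16.1% of all genes were called lower with PRKDC hairpins, 4.02% with PABPC1, 2.98% with PARP1 and 5.76% with SUPT16H. All 6 calls were lost without lacZ replicate 2, and 3 of them without lacZ replicate 3. Without the 3 arrays that stood apart the count was 14, 1 of them higher, where 17.6% of all such comparisons were called. In the first series 0 of 32 were called by limma (2 at an unadjusted p under 0.05), where CLP1 called 0.956% of all genes, DDX5 0.842%, DDX17 2.77% and HNRNPL 1.84%. The median of the 8 genes was below 0 in every knockdown, from −0.11 (CLP1) to −0.36 (SUPT16H), against medians over all genes between −0.01 and 0.10. In the DDX5 cells the mean of all 8 was lower than lacZ, where 46.7% of all genes were, in a comparison whose control is 1 array. Without the third DDX5 hairpin, which stood apart, ATP6V0B was 0.11 above lacZ and the other 7 were not.

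**Figure D3:**
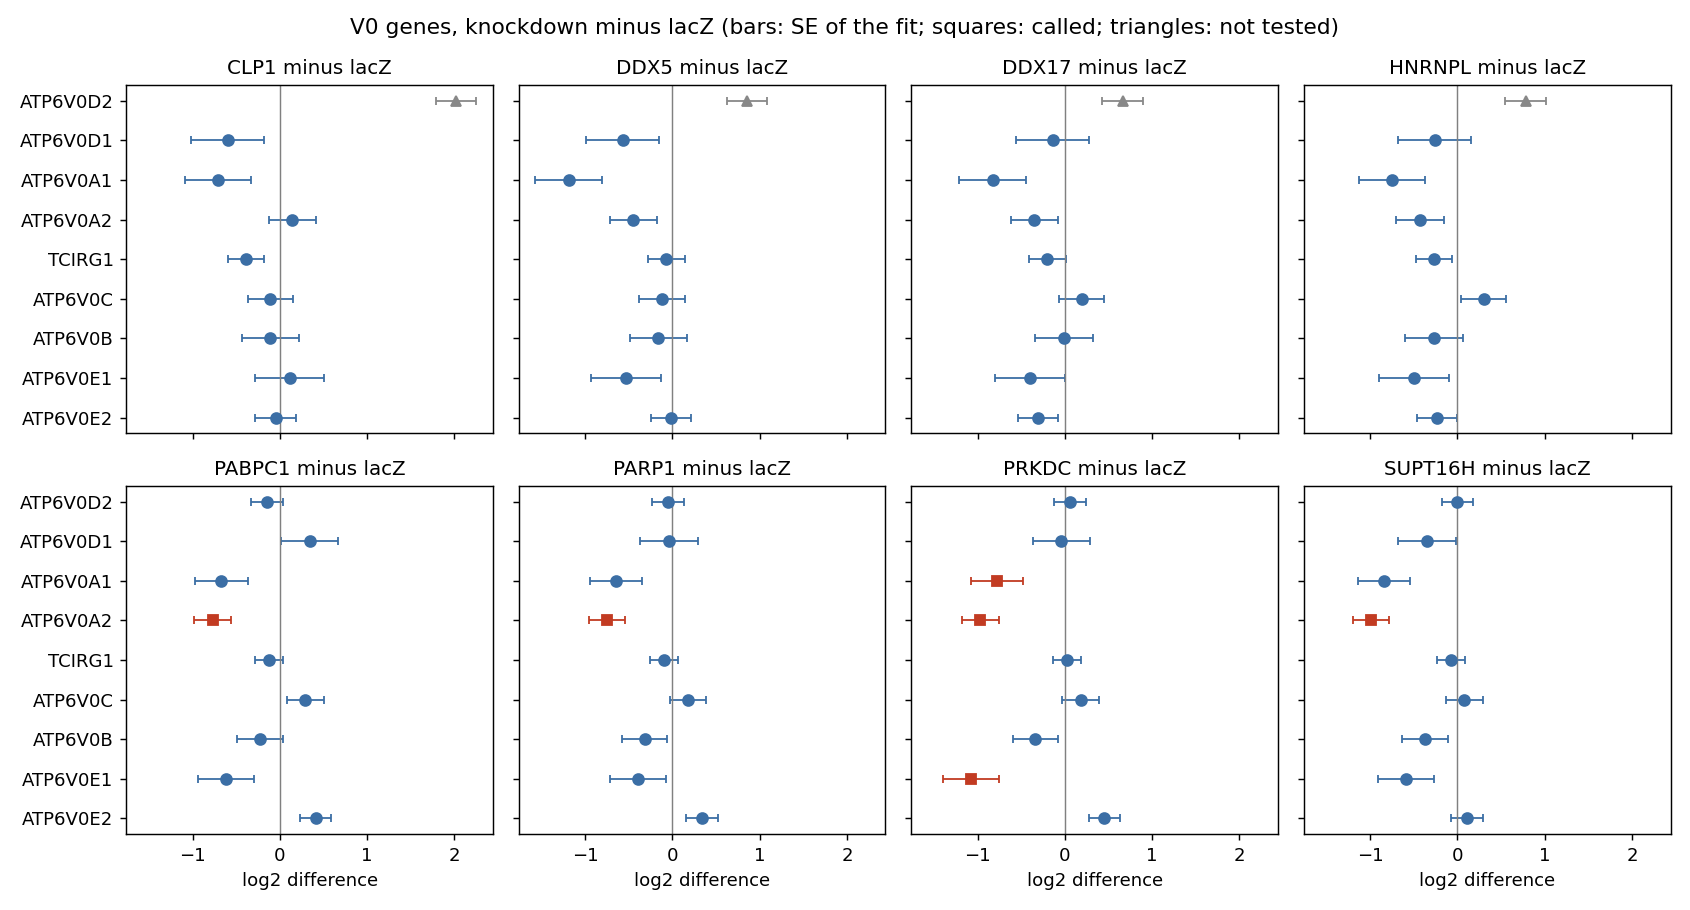
Difference from lacZ on the log2 scale (x axis) for the 9 V0 genes (y axis) in each knockdown, with bars at the SE of the fit, red squares for called differences and grey triangles for the untested ATP6V0D2 contrasts. The called differences are 4 of ATP6V0A2, 1 of ATP6V0A1 and 1 of ATP6V0E1, and the CLP1 value of ATP6V0D2, 2.02, is the largest in size.

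Against the other 3 targets of their series, none of the 8 genes was called by limma in 64 comparisons (5 at an unadjusted p under 0.05), where 0.309% of all genes were. Between pairs of targets 0 of 96 comparisons were called (11 at an unadjusted p under 0.05, limma), where 0.553% were. These counts rose to 5 and 4 without the first DDX5 hairpin, and to 1 and 2 without the third. Over the 28 arrays, after taking off each series' mean, the V0 genes did not run together as one: Pearson's r was 0.80 between ATP6V0D1 and ATP6V0C, 0.70 between ATP6V0A1 and ATP6V0A2 and 0.69 between ATP6V0D1 and ATP6V0B, and between −0.39 (TCIRG1) and 0.36 (ATP6V0E1) for the pairings of ATP6V0D2. These describe arrays that share libraries and normalization.

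Genes of the lysosomal and pump group often carry the E-box, the hexamer CACGTG, in their promoter, which the factor TFEB reads in a longer form, TCACGTGA, called CLEAR. RefSeq promoter windows (250 bases before to 50 after a start, GRCh38.p14) were listed for 8 of the V0 genes and not for ATP6V0D2 or ATP6V0E1. On either strand the E-box was in 7.26% of the 35116 windows of the genome, the CLEAR form, which contains it, in 0.98%, and CARE-type TGATGNAA, read by ATF4, in 3.62%. Of the 8 genes, 3 had an E-box, 1 a CLEAR form and 0 a CARE-type match in any of their windows. Some genes have several windows, so these counts of genes and the shares of single windows are unlike measures. They are shown, with the E-box or CLEAR form in capitals, because they are all the matches among these genes, and a match is a description of the letters and not a site.
ATP6V0D1, chr16:67481196-67481225, minus strand: ccttatggTCACGTGAggcgcttgcgcgtc
ATP6V0B, chr1:43974894-43974923, plus strand: gcgtggggtCACGTGgtaccggcgcatcac
ATP6V0B, chr1:43974912-43974941, plus strand: ccggcgcatCACGTGggcgagttaggtgac
ATP6V0E2, chr7:149872887-149872916, plus strand: cttctgcatCACGTGgggactgcgcctccc
None of these 3 genes was called in a comparison with lacZ over all arrays, and without the arrays that stood apart ATP6V0B was called with PRKDC hairpins and ATP6V0E2 with PABPC1 hairpins, as above.

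Few V1 head subunit comparisons were called. Of 13 listed genes 12 were measured, and over the 8 knockdowns 2 comparisons with lacZ were called higher and 1 lower of 96. Over all genes 3.75% of such comparisons were called higher and 4.10% lower. ATP6V1B1, the B isoform of kidney intercalated cells, rose with PARP1 hairpins by 0.59 ± 0.16 (SE; adjusted p = 0.0276, limma; 2.46% of all genes called higher). It rose with PRKDC hairpins by 0.56 ± 0.16 (adjusted p = 0.0123, limma; 19.6% called higher). ATP6V1B2, the B isoform of most cells, was −0.46 ± 0.28 with PRKDC hairpins (adjusted p = 0.19, limma). ATP6V1D, a central stalk subunit, fell with PRKDC hairpins by 1.06 ± 0.40 (adjusted p = 0.0411, limma), a call lost in 8 of 38 alternatives, quantile normalization and median centring among them. In the CLP1 cells none of the V1 genes was called, and the C isoform ATP6V1C2 was at 0.56 ± 0.14 against the other targets of its series (adjusted p = 0.0508, limma), short of the threshold. ATP6V1C1 differed from lacZ by −0.67 ± 0.59 with CLP1 hairpins, ATP6V1G1 by 0.34 ± 0.35, and the kidney isoform ATP6V1G3 had means of 3.5 to 3.85 in all groups. ATP6V1G2 was not measured.

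Of 14 genes for accessory and assembly proteins 11 were measured, and of 88 comparisons with lacZ 5 were called higher and 4 lower, with no call in the first series. Over all genes 3.75% of such comparisons were called higher and 4.10% lower. Of the 4 lower calls 3 were with PRKDC hairpins, where 16.1% of all genes were called lower. DMXL1, a subunit of the RAVE complex that rejoins V1 to V0, fell with PRKDC hairpins by 1.60 ± 0.31 (adjusted p = 0.00141, limma) and with SUPT16H hairpins by 1.17 ± 0.31 (adjusted p = 0.0213, limma). DMXL2 and WDR7 also fell with PRKDC hairpins, by 0.96 ± 0.29 and 0.93 ± 0.27 (adjusted p = 0.0169 and 0.0146, limma). ROGDI, a further RAVE component named after its values were seen, rose in all 4 second-series knockdowns by 0.50 to 0.61, and TLDC2 rose by 0.88 with PRKDC hairpins. PRKDC was the knockdown in which 35.7% of all genes were called. Without lacZ replicate 2, 1 of the 12 calls of the V1, accessory and assembly genes was left.

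Among 40 measured genes of the lysosome and its TFEB and mTORC1 control, 4 comparisons of 320 with lacZ were called higher and 13 lower, again with none in the first series. Over all genes 3.75% of such comparisons were called higher and 4.10% lower, so the lower calls were near the share over all genes. Of the lower calls 8 were with PRKDC hairpins, where 16.1% of all genes were called lower. LAMTOR3, a Ragulator subunit, fell by 1.2 ± 0.26 with PRKDC hairpins (adjusted p = 0.00313, limma), and NPC1, the lysosomal cholesterol exporter, fell by 1.12 ± 0.29 (adjusted p = 0.00835, limma). FNIP1 and RRAGC, of the Rag GTPase pathway, fell in 3 and 2 knockdowns, by 0.91 to 1.15 and by 0.97 to 1.12. The cathepsin CTSZ, named after its values were seen, rose with PABPC1, PARP1 and PRKDC hairpins by 0.60 to 0.87. Of the 17 calls 0 were left without lacZ replicate 2, and with quantile normalization 9 were higher and 11 lower. No gene of this list was called in the CLP1 cells, where its median difference was −0.05 beside a median near 0 over all genes.

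ATP6V0D2 is a gene of osteoclasts, so osteoclast and other markers were read beside it. In the CLP1 arrays the summed linear intensity of the 10 measured osteoclast markers was 539.3 to 555.4, against 617.7 in lacZ. A sum below lacZ was not particular to CLP1: it was 487.1 to 534.4 with DDX17, 539.2 to 564.7 with HNRNPL and 503.7 with CPSF6. With DDX5 it was 519.3 to 637.2, on both sides of lacZ. The sum of 13 intercalated cell markers was 870.4 to 955.1 in the CLP1 arrays, against 945.4 in lacZ. The 1 osteoclast marker called with CLP1 hairpins was CTSK, a bone matrix protease, which fell by 1.27 ± 0.22 (adjusted p = 0.0023, limma) and was not called with each series fitted alone (adjusted p = 0.0643, limma). The osteoclast markers ran over the 28 arrays from CALCR at 3.54 to 4.10, DCSTAMP at 3.59 to 4.19 and ITGB3 at 4.42 to 5.22, through OCSTAMP at 5.06 to 6.19 and SIGLEC15 at 5.43 to 6.06, to NFATC1 at 6.15 to 6.97 and TNFRSF11A at 6.94 to 7.55. ACP5 was not measured. Of the macrophage and blood cell markers PTPRC was dimmest, at 3.32 to 3.84, and CD68 brightest, at 6.67 to 8.02. Over the 8 knockdowns 5 comparisons of the osteoclast list were called higher and 8 lower of 80, where 3.75% and 4.10% of all comparisons were, and all 8 lower calls were of CTSK. Those of the intercalated cell list were 5 higher and 0 lower of 104. The part of other cell types in the ATP6V0D2 level was not tested, and fewer cells of a type and less RNA per cell cannot be told apart in such bulk samples.

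CTSK fell in all 8 knockdowns, by 1.19 to 1.62. In 24 of 24 hairpin arrays it lay below every lacZ array of the series, as for 4.69% of all genes. The comparisons of a series share its lacZ arrays and are not independent. ATP6V0D2, chosen by its values, was above lacZ in 12 of the 12 first-series hairpins, as for 9.31% of all genes. The CPSF6 array, at 5.59 against 6.68, was also low for CTSK. The 8 measured neighbours of ATP6V0D2 on its chromosome had no call with CLP1 hairpins, and 3 calls higher and 1 lower in the other knockdowns. These were of 64 comparisons with lacZ, where over all genes 3.75% were called higher and 4.10% lower.

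The genes whose pattern was most like that of ATP6V0D2 over the 28 arrays, after each series' mean was taken off, were TMEM132B (Pearson's r 0.81), C5 (0.75), GGTA1, ZNF71, HLF and RCBTB2 (0.70 each). Without the 3 CLP1 arrays the same coefficients over 25 arrays were 0.55, 0.46, 0.61, 0.63, 0.42 and 0.47. Their own CLP1 differences from lacZ ran from 0.43 (ZNF71) to 1.38 (RCBTB2), below the 2.02 of ATP6V0D2. The CLP1 arrays were among those used to pick these genes, so their CLP1 differences are a description only. PRR14 and OR4F13P were least like it (−0.69 and −0.68).

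**Figure D4:**
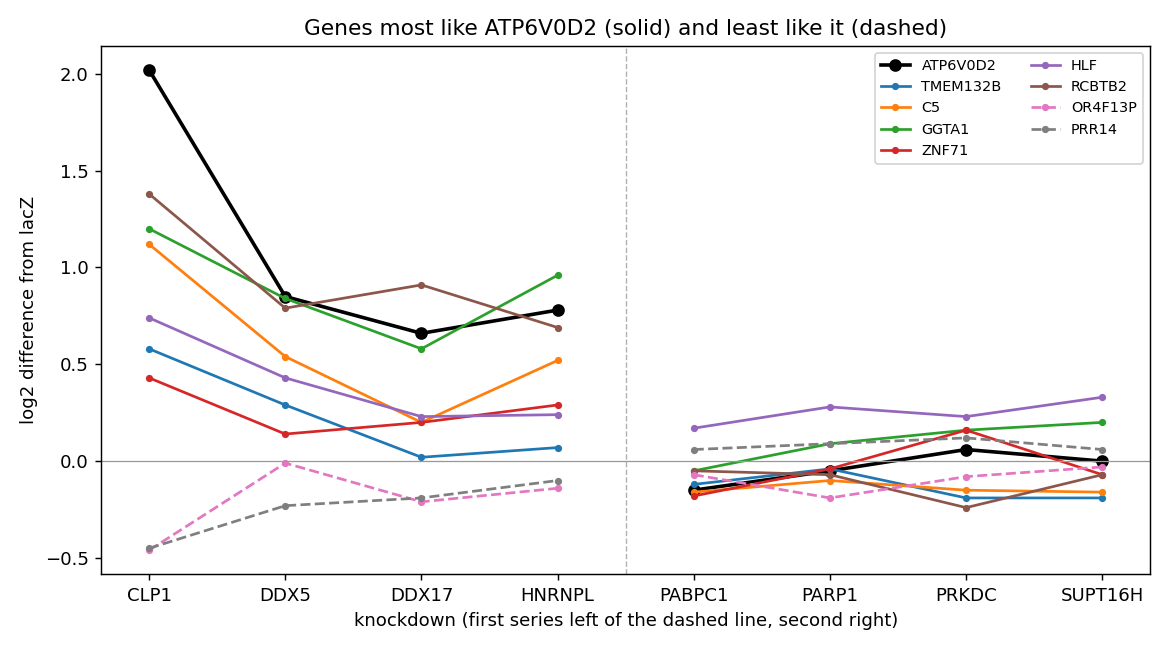
Difference from lacZ on the log2 scale (y axis) for ATP6V0D2 (black), the 6 genes most like it (solid lines) and the 2 least like it (dashed lines) in each knockdown (x axis). The solid lines all have their highest first-series point at CLP1 and lie between −0.24 and 0.33 in the second series. The 6 genes were picked on arrays that include the CLP1 arrays, so their high CLP1 point is favoured by the choice.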

How the data were processed

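Total RNA of 28 HEK293 samples was hybridised to HuGene ST1.0 arrays after random-primed whole-transcript amplification. The deposited intensity values were made by the authors with RMA per the labels (background subtraction, quantile normalization and summary of probes) and run from 4.25 to 18486 on the linear scale. The build behind these values was not given in the sources used here (the study placed single probes on hg19 for another measure). Of 33252 probesets, 19460 name 1 gene, 1754 several and 12038 none. Genes were read from the first kind. Where several probesets named a gene (769 genes), the brightest on average stood for it.

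Log2 values with no pseudocount or filter were fitted with limma 3.58.1 in R 4.3.3, in 1 model over all 28 arrays with a mean per group and lacZ separate by series (17 residual and 8.0 prior degrees of freedom, intensity trend). p-values were adjusted by Benjamini-Hochberg over all 18417 genes of a comparison, with 0.05 as threshold. CPSF6 has 1 array and no test. The number of arrays, the hairpins that stood apart and the lacZ library shared by the series limit precision. Promoters and figures used Python 3.11.15. The hairpin numbers were not taken to pair samples.

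Members are named with values in every array or as a range. From each other list the 4 largest called differences and the isoform pairs of V1 are named, and the 6 genes most and 2 least like ATP6V0D2. The members and lists were chosen with earlier results of these data known.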

Additional observations from a re-analysis of the deposited data

How the results depend on the processing

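The alternatives were fitting each series alone, 1 lacZ group over both series, quantile normalization, median centring, a pseudocount of 16, a mean log2 intensity of at least 6, all probesets averaged, no intensity trend, an ordinary linear model, a replicate block and leaving out each array. The 1 lacZ group crosses the series, which differ in scale. The call count of the 8 V0 genes against lacZ, 6, was 3 with median centring and 0 to 9 without single arrays. It was 9 without DDX5 replicate 1, 0 without lacZ replicate 2 and 3 without replicate 3. The V0 count against other knockdowns, 0, ran to 5 without single arrays (5 without DDX5 replicate 1, 1 without DDX5 replicate 3), and that between pairs, 0, was 1 with each series alone and ran to 4 (4 and 2 without the same arrays). Without the 3 arrays that stood apart, an alternative chosen after seeing the data, these counts were 14, 3 and 6. The V1, accessory and assembly count, 12, was 20 with each series alone, 22 with 1 lacZ group, 31 without the arrays apart and 1 to 19 without single arrays. The lysosome count, 17, was 42, 36, 58 and 0 to 46 in the same settings. The untested CLP1 difference of ATP6V0D2, 2.02, was 2.3 with 1 lacZ group and 1.3 with the pseudocount, and 2.01 to 2.06 without single arrays, and its second-series count stayed 0. The split of the V0 calls, 0 higher and 6 lower, was 2 and 5 with quantile normalization. That of the V1, accessory and assembly calls, 7 and 5, was 9 and 11 with each series alone, 15 and 7 with 1 lacZ group and 11 and 20 without the arrays apart. That of the lysosome calls, 4 and 13, was 9 and 11 with quantile normalization and 17 and 19 with 1 lacZ group.

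Hairpin numbers were not taken to pair arrays. Correlations of same-numbered arrays ran from −0.58 to 0.83, with 15 of 36 over 0.1. They were highest between DDX5 and HNRNPL, at 0.63 for hairpin 1 and 0.83 for hairpin 3. With the replicate block the V0 counts were 6, 0 and 0, the V1, accessory and assembly count 12 and the lysosome count 18. The intensity filter removed ATP6V0D2. The first-series control is 1 array, so its own spread is unknown, and without it no first-series contrast with lacZ can be made. The cause of the changed counts was not tested.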
